A study of Mus musculus with 23 samples.

Results

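The proteasome is the multi-subunit protease that degrades ubiquitin-tagged proteins in the cytosol and nucleus. Its 20S core is a barrel of 2 outer rings of alpha subunits, which gate the entrance, and 2 inner rings of beta subunits, of which Psmb5, Psmb6 and Psmb7 carry the active sites. The 19S particle caps the core. Its Psmc subunits are ATPases that unfold the substrate, and its Psmd subunits bind ubiquitin chains, remove them or hold the particle together. Psme genes encode other activators of the core, Psmf1 an inhibitor, and Psmg1 to Psmg4 the chaperones that build the alpha ring. Plasma cells secrete large amounts of immunoglobulin and depend on this protease, and proteasome inhibitors directed at the Psmb5 site are standard drugs in multiple myeloma.

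Of the 24063 gene symbols in each count table, 45 were proteasome subunit genes: every Psma, Psmb, Psmc, Psmd, Psme, Psmf and Psmg symbol followed by a number, except Psmb8, Psmb9 and Psmb10, the inducible catalytic subunits of the immunoproteasome. They were chosen by name, not by their values, and comprised 16 genes of the 20S core, 20 of the 19S particle and 9 activators, inhibitors and core chaperones. The filter on low counts kept 43 of them. The other 2 were at or near 0 reads in every library: Psma8, an alpha subunit of the testis, had at most 2 reads, and Psmb11, a beta subunit of the thymic cortex, had at most 2 reads.

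RNA-seq had been made from 23 libraries of sorted CD138+ B220- mouse cells in 6 groups. The 3 control libraries came from the bone marrow of mice that carried IgG1-Cre alone. The 4 VQ lines, each with 4 libraries and numbered D1, D2, D4 and D5 after their donors, were myelomas that carried the Vκ*MYC transgene, the conditional NrasLSL Q61R/+ allele and IgG1-Cre. Each line was propagated from 1 donor by transplantation, so a difference between lines is a difference between single tumours. The fifth line, t-VK12653, also 4 libraries, was a transplanted myeloma that carried Vκ*MYC without the Nras allele or the Cre, and it was the only line of that genotype. Vκ*MYC is a MYC transgene under κ light chain control that is switched on in germinal-centre B cells, NrasLSL Q61R/+ is an activated Nras allele behind a stop cassette, and IgG1-Cre removes that cassette in B cells that switch to IgG1. Cre was thus shared by the controls and the VQ lines and absent from t-VK12653. In the order of the replicate numbers 1 to 4, libraries came from bone marrow, spleen, bone marrow and spleen for VQ-D1 and t-VK12653, from spleen, spleen, lymph node and lymph node for VQ-D2, and VQ-D4 gave 1 library each of bone marrow, liver, spleen and lymph node, in that order. VQ-D5 libraries came from bone marrow, bone marrow, lymph node and lymph node. The labels do not say whether libraries of a group came from separate animals. By the names of the deposited tables alone, the 4 libraries of each tumour line came from 2 recipient mice, so n = 4 counts libraries and not mice, and p-values measure the spread between these libraries.

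Each library held between 2685579 and 10047314 counted reads, of which between 0.284% and 0.595% fell on the 45 genes. Sdc1, which encodes the sorting marker CD138, was present in all 23 libraries, at 251 to 1285 CPM (counts scaled to a common library total). Markers of other marrow cells had higher summed levels in the controls than in the tumour libraries. All 10 neutrophil markers had their highest group mean in the controls, with summed CPM of 3108 to 8597 against 3.52 to 1144 in the tumour libraries, and the 8 erythroid markers likewise, at 83.7 to 455 against 1.17 to 36.9. The 7 B cell markers summed to 505 to 783 CPM in the controls and 60.4 to 196 in the tumours. The highest mean was also in the controls for 5 of the 6 monocyte markers and 6 of the 7 T and NK cell markers, at sums of 339 to 1329 against 14.1 to 155 and of 45.4 to 65.7 against 0.322 to 45.8. The 8 plasma cell markers also summed to more in the controls, 35411 to 64747 CPM, than in the tumour libraries, 4395 to 15229 CPM, and 4 of the 8 had their highest group mean in the controls. The 5 hepatocyte markers summed to 0.327 to 2.09 CPM in the controls and 1.98 to 35.4 in the tumours, with the top value in the VQ-D4 liver library. No list had a gene that was at 0 in every tumour library. The part of this other RNA in the differences between tumours and controls was not tested, and fewer cells of a type cannot be told apart from less RNA per cell.

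The genes lay on many chromosomes, with no shared promoter. RefSeq promoters (GRCm38.p6), read as the 250 bases before the transcription start, matched 37 of the 45 genes. Those of 3 genes are printed because they carry results given later. The genes are Psmb5, the drug-target catalytic subunit, Psmd9, a 19S assembly chaperone whose level differed between lines, and Psmb4. Psmb4 is the structural beta subunit with the largest fold change between VQ lines and controls. Capitals mark a match to the antioxidant response element TGACNNNGC, the letters that the proteasome regulator Nfe2l1 binds, or to the E-box CACGTG, the letters that MYC binds, on either strand. They are the Psmb5 promoter at chr14:54617996-54618245 (minus strand), the Psmd9 promoter at chr5:123227940-123228189 (plus strand) and the Psmb4 promoter at chr3:94886959-94887208 (minus strand).
Psmb5: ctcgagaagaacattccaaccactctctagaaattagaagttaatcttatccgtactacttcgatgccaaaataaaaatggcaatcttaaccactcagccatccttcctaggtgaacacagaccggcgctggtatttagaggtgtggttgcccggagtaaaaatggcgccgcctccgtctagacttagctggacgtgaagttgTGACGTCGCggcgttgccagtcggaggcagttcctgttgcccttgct
Psmd9: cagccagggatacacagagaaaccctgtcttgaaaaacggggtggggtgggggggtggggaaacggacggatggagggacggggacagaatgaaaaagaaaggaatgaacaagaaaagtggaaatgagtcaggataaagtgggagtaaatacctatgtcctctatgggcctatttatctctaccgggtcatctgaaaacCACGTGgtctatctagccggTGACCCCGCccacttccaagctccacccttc
Psmb4: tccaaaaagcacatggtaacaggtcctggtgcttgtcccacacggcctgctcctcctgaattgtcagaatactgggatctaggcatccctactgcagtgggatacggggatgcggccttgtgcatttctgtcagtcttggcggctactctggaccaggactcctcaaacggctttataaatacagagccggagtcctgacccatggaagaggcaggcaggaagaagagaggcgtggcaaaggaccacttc
In Psmb5 the response element starts 47 bases before the transcription start. Psmd9 has the element at 31 bases and an E-box at 51 bases, and no letters of Psmb4 match the element, the E-box or the CCAAT box.

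Matches to TGACNNNGC were found in promoters of 5 of the 37 genes, 13.5%, against 10.2% of all 32851 promoters of that length. The 5 genes were Psmb5, Psmb6, Psmc6, Psmd9 and Psmd12. CACGTG occurred in 3 of 37 (8.11%, against 6.02% of all) and CCAAT in 13 of 37 (35.1%, against 33.8%). Members were counted by gene, with a match in any of a gene's promoters (40 promoters for 37 genes), and the background by promoter. The units are thus unlike, to the members' favour. These shares lay near those of all promoters, and a match of letters is not a measured site.

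Summed over the 45 genes in CPM, every tumour library lay above every control library. The 3 controls had 2765 to 2877 CPM, a mean of 2827 ± 56.7 (SD, n = 3). The t-VK12653 libraries followed at 3433 ± 107 (n = 4), then VQ-D4 at 3953 ± 375, VQ-D1 at 4371 ± 162, VQ-D2 at 4686 ± 89.4 and VQ-D5 at 5731 ± 286. The VQ-D4 liver library, at 3456, lay within the t-VK12653 range of 3337 to 3533, and the other 15 VQ libraries lay above it. The 20S core followed the same order of groups, from 776 ± 44.4 CPM in the controls and 984 ± 67.0 in t-VK12653 through 1098 ± 162 in VQ-D4, 1204 ± 39.6 in VQ-D1 and 1353 ± 43.3 in VQ-D2 to 1655 ± 55.3 in VQ-D5. The 19S sums were 1485 ± 6.19 CPM in the controls, 1878 ± 13.8 in t-VK12653, 2080.0 ± 188 in VQ-D4, 2166 ± 76.5 in VQ-D1, 2453 ± 71.3 in VQ-D2 and 3198 ± 230.2 in VQ-D5. VQ-D4 overlapped VQ-D1 within 1 SD in both sums and t-VK12653 in the 20S sum. In the 19S sum its liver library, at 1840, lay below every t-VK12653 library (1864 to 1896). The regulator genes had another order: VQ-D1 was highest at 1001 ± 59.2, above VQ-D2 at 881 ± 21.2, VQ-D5 at 878 ± 21.5 and VQ-D4 at 775 ± 34.5, and t-VK12653 at 571 ± 40.4 overlapped the controls at 566 ± 15.1. On the authors' TPM scale, which is not TMM-scaled, the sums were 4582 ± 122 in the controls, 4819 ± 392 in t-VK12653, 5768 ± 581 in VQ-D4 and 7504 ± 385 to 9026 ± 518 in the other lines, so that t-VK12653 overlapped the controls and the VQ lines did not. Sums of CPM give long and abundant genes more weight, so they are a description of these libraries and carry no test.

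**Figure D1:**
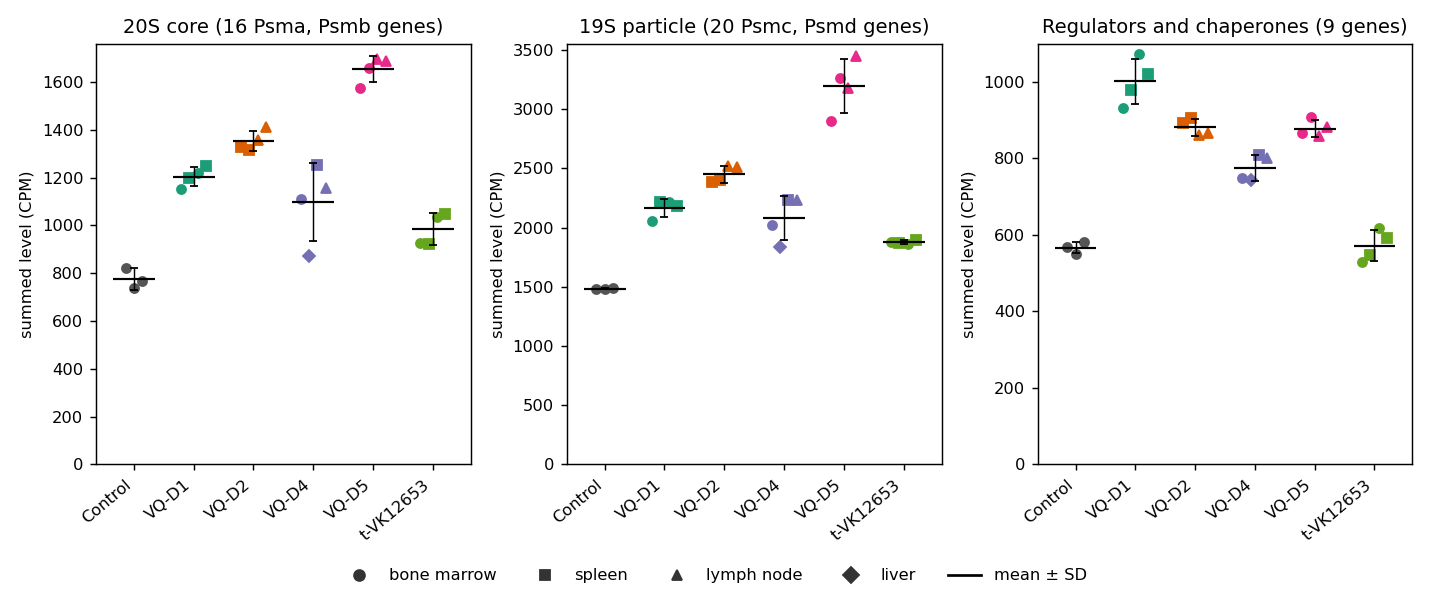
Summed CPM (vertical axes, TMM-scaled) of the 20S, 19S and regulator genes in each of the 23 libraries, by group, with the marker showing the tissue and bars the group mean ± SD. The controls lie lowest for 20S and 19S, VQ-D5 is highest for both, and VQ-D1 is highest for the regulator genes.

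Per transcript length, the genes differed widely in level. In the controls the lowest tested members were Psmd9, a 19S assembly chaperone, at 13.1 ± 4.3 TPM (the authors' length-scaled values; SD, n = 3) and Psmg3, a core chaperone, at 15.4. The highest were Psme1, an interferon-inducible activator subunit, at 361.6 ± 24.6, Psmb1, a structural beta subunit, at 286 ± 5.92 and Psmd4, a ubiquitin receptor of the 19S particle, at 271.4 ± 17.9. In VQ-D5 the order at the top was Psmd4 at 749.2 ± 89.5 TPM, Psmb4 at 661.7 ± 36.7, the alpha subunit Psma7 at 463.6 and the ATPase Psmc3 at 429.2 (n = 4).

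The first question the design poses is whether myelomas with MYC and activated Nras differ from CD138+ B220- cells of mice without either. To let each VQ line count once, the 4 libraries of a line were added up and the 4 line sums were compared with the 3 controls. Of the 43 tested genes 26 were higher (adjusted p below 0.05) and 0 lower, where 13.7% of all 13870 genes tested were higher and 9.27% lower. The median log2 fold change of the 43 was 0.89 (1.85-fold) against 0.19 over all genes. All 43 lay above 0, from 0.05 to 1.67. In a model of all 23 libraries that allows for tissue, the mean of the 4 VQ lines lay above the controls for 41 of 43. There the members' median was 0.67, against -0.09 over all genes. By structure, in the line sums, 10 of 14 core genes, 12 of 20 of the 19S genes and 4 of 9 regulator genes were higher. By role, the higher genes were 4 of 7 alpha subunits, 6 of 7 beta subunits, 4 of 6 ATPases, 8 of 14 non-ATPase subunits, 3 of 4 core chaperones, 1 of 4 activators and 0 of 1 inhibitors. The count rests on all 3 controls: without control replicate 1, 2 or 3 it was 4, 3 or 3. It was 11 without VQ-D2, 17 without VQ-D5 and 11 in bone marrow libraries alone. Calls over all genes fell too, from 3192 to 1221, 1148 and 1226 without control replicate 1, 2 or 3. They were 2325 without VQ-D2, 2534 without VQ-D5 and 2027 in bone marrow libraries alone.

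The catalytic subunits all rose in this comparison. Psmb5, the chymotrypsin-like site, read 17.00, 14.95 and 17.4 CPM in the controls and 17.3, 12.4, 10.8 and 16.8 in t-VK12653. In the VQ lines Psmb5 was 36.8, 41.6, 43.3 and 43.9 in VQ-D5, 35.5, 26.95, 43.8 and 35.5 in VQ-D4, 32.05, 34.1, 30.6 and 38.4 in VQ-D2 and 33.5, 34.9, 34.04 and 35.8 in VQ-D1. All 16 VQ libraries lay above all controls, while t-VK12653 overlapped them, and the fold change of the line sums was 1.29 in log2 units, with an SE of 0.20 and an adjusted p of 0.00655. This call was kept without any 1 control.

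Psmb6, the caspase-like site, read 94.8, 75.1 and 62.1 CPM in the controls, 93.9, 92.2, 112 and 108 in t-VK12653 and 133, 129.8, 137 and 143 in VQ-D1. It read 110.4, 125, 134 and 131 in VQ-D5, 121, 103, 152 and 163 in VQ-D4 and 106, 114, 104 and 113 in VQ-D2. All VQ libraries again exceeded the controls and t-VK12653 overlapped them (log2 fold change of the line sums 0.85, SE 0.19, adjusted p = 0.0198), and the call was lost without control replicate 2 (0.77) or 3 (0.73). Psmb7, the trypsin-like site, read 34.98, 36.5 and 44.5 CPM in the controls, 49.8, 43.5, 58.1 and 54.99 in t-VK12653 and 62.9, 67.3, 65.95 and 71.5 in VQ-D1. It read 89.7, 85.96, 108 and 107 in VQ-D5, 59.2, 47.3, 69.3 and 61.9 in VQ-D4 and 74.4, 67.3, 76.9 and 76.6 in VQ-D2. All 16 VQ libraries were above the controls, which t-VK12653 overlapped (1.11, SE 0.25, adjusted p = 0.0197), and the call was lost without any 1 control (1.01 to 1.24). Per length, the 3 sites stood at 179.2 TPM for Psmb6, 95.8 for Psmb7 and 45.3 for Psmb5 in the controls.

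None of the inducible counterparts of these sites passed the test. Psmb8, Psmb9 and Psmb10 replace Psmb5, Psmb6 and Psmb7 in the immunoproteasome, and their line sums differed from the controls by 0.26, -0.34 and -0.17 on the log2 scale (adjusted p = 0.643, 0.631 and 0.832). Within VQ-D4 all of them were lower than in the controls, by -0.74, -2.08 and -1.52, and Psmb9 read 70.3, 49.04 and 60.3 CPM in the controls against 10.95, 12.5, 21.6 and 14.8 in VQ-D4. Psmb10 was also lower in VQ-D1 (-1.25) and t-VK12653 (-1.48) and higher in VQ-D2 (0.43). Psmb8 was higher in VQ-D1 (0.60) and t-VK12653 (0.65), and Psmb9 lower in VQ-D1 (-0.54).

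**Figure D2:**
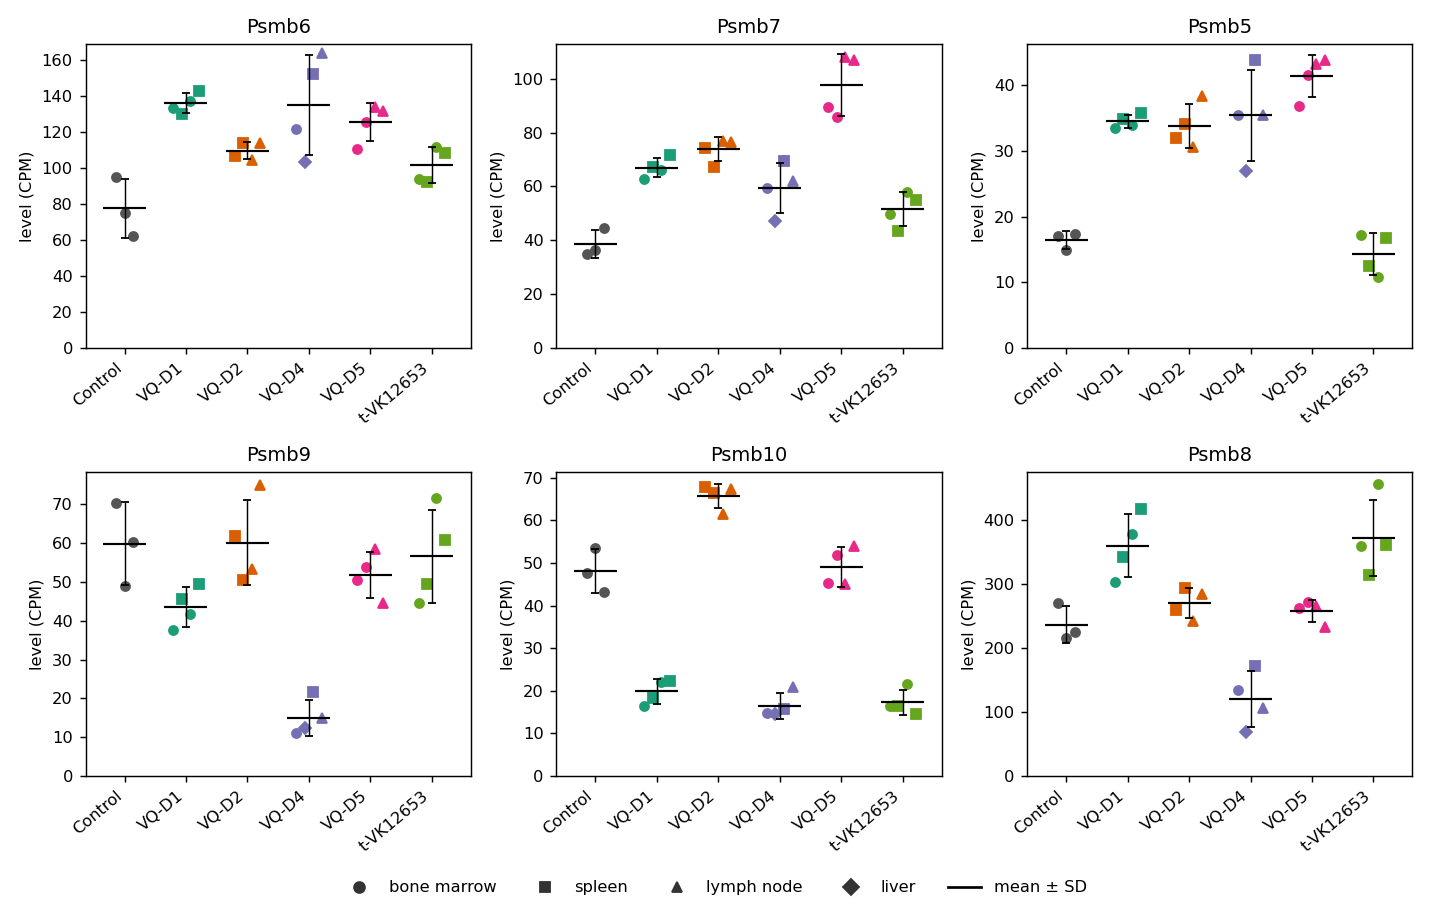
CPM of the constitutive catalytic genes Psmb6, Psmb7 and Psmb5 (top) and of the inducible Psmb9, Psmb10 and Psmb8 (bottom) in each library by group, with bars for the group mean ± SD. Psmb5 separates all 16 VQ libraries from the controls and t-VK12653, and the inducible genes are lowest in VQ-D4, except that Psmb10 is about as low in VQ-D1 and t-VK12653.

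Among the other members with the largest fold changes of the line sums were Psmb4, Psmg1 and Psma5. Psmb4, a structural beta subunit, read 52.6, 49.7 and 56.9 CPM in the controls, 73.1, 86.1, 86.7 and 99.96 in t-VK12653 and 79.7, 107, 91.02 and 100.2 in VQ-D1. It read 256, 268, 279 and 282 in VQ-D5, 89.2, 70.4, 113 and 102 in VQ-D4 and 132, 136, 154 and 153 in VQ-D2. Every tumour library was above the controls and VQ-D5 stood above all others (log2 fold change 1.67, SE 0.43, adjusted p = 0.0309).

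Psmg1, a chaperone of the alpha ring, read 10.8, 9.39 and 11.1 CPM in the controls, 13.8, 9.80, 19.2 and 11.6 in t-VK12653 and 25.4, 16.7, 15.8 and 17.3 in VQ-D1. It read 30.9, 37.7, 38.2 and 41.6 in VQ-D5, 17.8, 16.02, 17.3 and 19.99 in VQ-D4 and 32.5, 24.6, 28.8 and 31.03 in VQ-D2. The VQ libraries lay above the controls, t-VK12653 overlapped them, and the fold change was 1.46 (SE 0.36, adjusted p = 0.0265). Psma5, an alpha subunit, read 12.1, 14.3 and 10.8 CPM in the controls, 11.3, 12.1, 16.9 and 18.4 in t-VK12653 and 22.7, 18.7, 23.1 and 23.1 in VQ-D1. It read 37.98, 40.7, 34.98 and 34.3 in VQ-D5, 21.04, 16.02, 23.9 and 22.9 in VQ-D4 and 35.6, 35.1, 37.1 and 36.7 in VQ-D2, with the same overlaps (1.38, SE 0.32, adjusted p = 0.0217). The calls of Psmb4, Psmg1 and Psma5 were each lost without any 1 control, at fold changes of 1.56 to 1.74, 1.34 to 1.53 and 1.30 to 1.43.

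The smallest fold changes that were still called belonged to Psmb1, Psma2 and Psmd2. Psmb1, a structural beta subunit, read 125, 121 and 125 CPM in the controls, 149.7, 171, 195 and 228 in t-VK12653 and 146, 142, 148 and 154 in VQ-D1. It read 143, 152, 167 and 145 in VQ-D5, 181, 144, 189.7 and 186 in VQ-D4 and 154, 150.4, 146 and 141 in VQ-D2. All tumour libraries exceeded the controls, by a log2 fold change of 0.49 for the VQ line sums (SE 0.14, adjusted p = 0.0464).

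Psma2, an alpha subunit, read 88.3, 79.3 and 71.9 CPM in the controls, 71.99, 70.9, 87.1 and 82.6 in t-VK12653 and 106, 110.3, 124 and 126 in VQ-D1. It read 113, 108, 117 and 123 in VQ-D5, 121, 86.4, 122 and 113 in VQ-D4 and 103, 98.4, 125 and 117 in VQ-D2. The VQ-D4 liver library and t-VK12653 overlapped the controls (0.67, SE 0.16, adjusted p = 0.0218). Psmd2, the 19S scaffold that docks ubiquitin-like domains, read 119.98, 143 and 130.3 CPM in the controls, 122, 123, 114 and 113 in t-VK12653 and 180.3, 209, 209 and 194 in VQ-D1. It read 214, 220.2, 239.6 and 269.6 in VQ-D5, 158, 115, 149 and 176 in VQ-D4 and 169, 193, 200.5 and 192 in VQ-D2. Here the VQ-D4 liver library, at 115 CPM, lay below every control, and t-VK12653 overlapped the controls (0.73, SE 0.21, adjusted p = 0.0463). The calls of Psmb1, Psma2 and Psmd2 were each lost without any 1 control, at 0.42 to 0.51, 0.61 to 0.75 and 0.67 to 0.74.

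Other 19S genes that rose were Psmd8, a lid subunit (1.35, adjusted p = 0.00523), Psmd14, the enzyme that cuts the ubiquitin chain off the substrate (1.24, adjusted p = 0.00614), Psmd3, a lid subunit (1.15, adjusted p = 0.0186), Psmd4 (1.11, adjusted p = 0.0399) and the ATPase Psmc6 (0.97, adjusted p = 0.0128). Of the activators, Psme3, the nuclear one, rose (1.33, adjusted p = 0.0115), whereas Psme1 and Psme2, which form the interferon-inducible ring, differed by 0.93 (adjusted p = 0.0815) and 0.34 (adjusted p = 0.364), and the large activator Psme4 by 0.41 (adjusted p = 0.0833). Among the core chaperones Psmg2 (1.19, adjusted p = 0.0295) and Psmg4 (1.14, adjusted p = 0.0159) rose with Psmg1, and Psmg3 did not pass the test (1.29, SE 0.71, adjusted p = 0.224). The inhibitor Psmf1 differed by 0.39 (adjusted p = 0.18), and the 19S assembly chaperone Psmd5, at 0.05 (adjusted p = 0.876), by the least of all members.

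Tested line by line, with all 23 libraries in 1 model that allows for tissue, each line had more members above the controls than below. These comparisons share the same 3 controls. Of 43 tested genes, 34 were higher and 2 lower in VQ-D1 (all genes: 57.1% called, 27.1% higher, 29.9% lower), 34 and 0 in VQ-D2 (54.2%, 26.9% and 27.3%), 28 and 2 in VQ-D4 (52.6%, 25.1% and 27.5%), 37 and 0 in VQ-D5 (61.2%, 28.5% and 32.7%), and 16 and 6 in t-VK12653 (55.5%, 26.2% and 29.3%). The members' median log2 fold changes were 0.62, 0.75, 0.49, 1.02 and 0.21, where those of all genes were -0.03, -0.06, -0.05, -0.12 and -0.04. In t-VK12653 the 22 of 43 members called were a share near that of all genes. In bone marrow alone VQ-D4 has 1 library, so its calls there are not counted. VQ-D2 has no bone marrow library, so its fold changes lean on tissue differences estimated in other lines. The VQ-D4 liver library has a tissue term of its own in this model. The VQ-D4 fold changes from it thus rest on the bone marrow, spleen and lymph node libraries of that line.

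By role, all 7 alpha and 7 beta subunits and all 6 ATPases were higher in VQ-D5, with 12 of 14 non-ATPase 19S subunits, 2 of 4 activators and 3 of 4 core chaperones. In VQ-D1 the higher genes were 6 alpha and 6 beta subunits, 5 ATPases, 10 non-ATPase subunits, all 4 activators and 3 core chaperones. VQ-D2 had 6 alpha and 5 beta subunits, 5 ATPases, 12 non-ATPase subunits, 2 activators and all 4 core chaperones above the controls. VQ-D4 had 4 alpha and 6 beta subunits, 4 ATPases, 8 non-ATPase subunits, 3 activators and 3 core chaperones. In t-VK12653 they were 3 alpha and 4 beta subunits, 2 ATPases, 4 non-ATPase subunits, 1 activator and 2 core chaperones. The inhibitor Psmf1 and the chaperone Psmd5 were called in none of these comparisons.

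**Figure D3:**
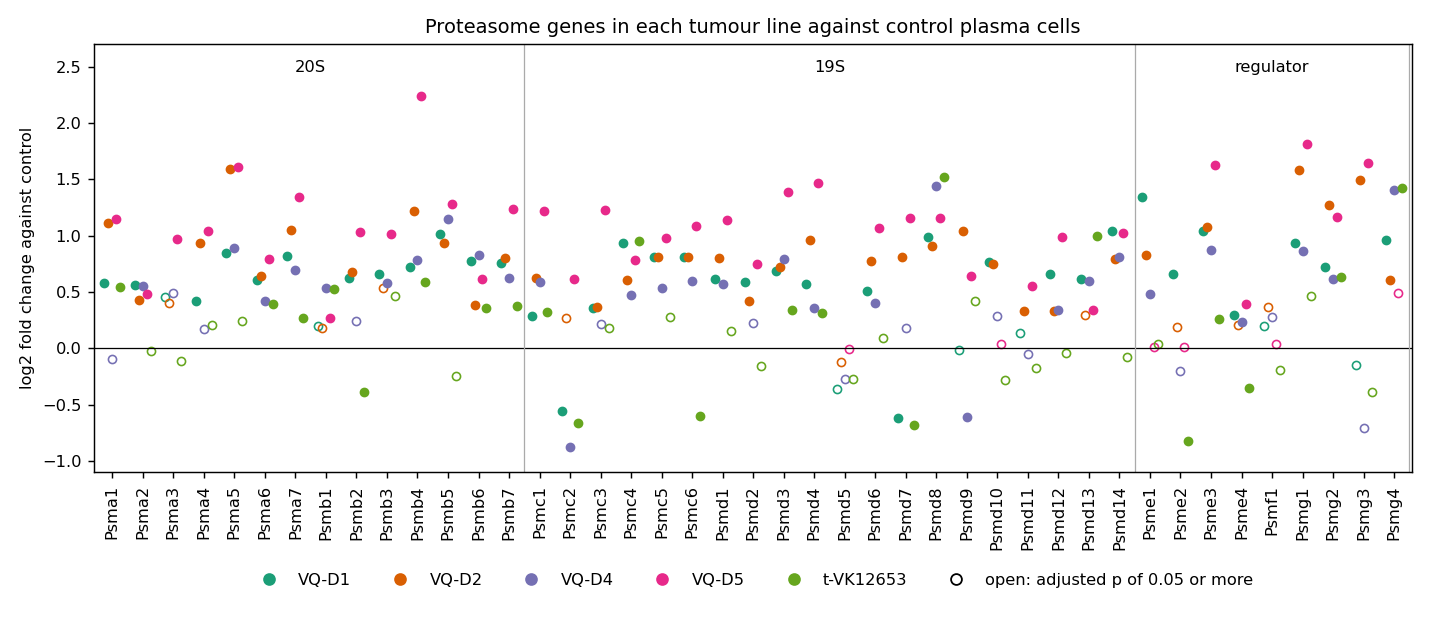
Log2 fold change against the controls (vertical axis) of each of the 43 tested genes (horizontal axis) in each of the 5 tumour lines. Filled symbols mark adjusted p below 0.05. Most filled symbols lie above 0, VQ-D5 reaches highest at Psmb4, and the filled symbols below 0 belong to VQ-D1, VQ-D4 and t-VK12653.

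The 20S gene with the largest fold change in any line was Psmb4 in VQ-D5, with 2.24 in log2 units (SE 0.11, adjusted p = 1.09e-13). The 19S gene Psmd8 was higher in all 5 lines, by 1.52 in t-VK12653, 1.44 in VQ-D4, 1.15 in VQ-D5, 0.99 in VQ-D1 and 0.91 in VQ-D2, and its group means were 119.9 ± 10.6 CPM in the controls and 242 to 356 in the lines. Psme3 was also higher in each, at 88.6 ± 7 CPM in the controls, 104 in t-VK12653 and 280.1 ± 11.3 in VQ-D5. Psmg2, at 9.97 ± 1.05 CPM in the controls, had line means of 14.8 to 25.9 and was higher in each line. Psmg4 was higher in VQ-D4 (1.41), t-VK12653 (1.42), VQ-D1 (0.96) and VQ-D2 (0.61), and differed by 0.49 in VQ-D5 without passing the test.

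There were 7 members that were lower than the controls in at least 1 line. Psmd7, the partner of the deubiquitinating subunit Psmd14, read 95.8, 98.1 and 104 CPM in the controls, 66.7, 71.8, 54.7 and 61.5 in t-VK12653 and 66.4, 74.4, 64.7 and 61.9 in VQ-D1. It read 208, 236, 236 and 250.2 in VQ-D5, 113, 97.3, 111 and 134 in VQ-D4 and 189.6, 195, 188 and 181 in VQ-D2. VQ-D1 and t-VK12653 lay wholly below the controls (-0.62, SE 0.10, adjusted p = 2.53e-05 and -0.68, SE 0.11, adjusted p = 9.1e-06), VQ-D2 and VQ-D5 wholly above them (0.81 and 1.16), and VQ-D4 differed by 0.18 (adjusted p = 0.17).

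Psmc2, an ATPase of the 19S base, read 69.6, 72.7 and 78.7 CPM in the controls, 48.8, 51.3, 44.9 and 44.7 in t-VK12653 and 43.7, 52.4, 56.1 and 51.5 in VQ-D1. It read 112, 116, 113 and 125 in VQ-D5, 38.3, 30.3, 43.5 and 43.9 in VQ-D4 and 87.2, 97.6, 92.00 and 97.00 in VQ-D2. VQ-D1, VQ-D4 and t-VK12653 lay below every control (-0.56, -0.87 and -0.66, adjusted p = 0.000123, 2.31e-06 and 2.07e-05) and VQ-D5 above every control (0.62, adjusted p = 3.52e-05). Psmc6, another ATPase of the base, read 51.98, 53.6 and 51.6 CPM in the controls, 34.3, 31.9, 37.1 and 30.6 in t-VK12653 and 88.8, 86.2, 94.5 and 85.2 in VQ-D1. It read 90.4, 122, 109.8 and 121 in VQ-D5, 82.4, 74.2, 74.9 and 74.5 in VQ-D4 and 80.2, 92.3, 93.2 and 87.9 in VQ-D2. All VQ libraries lay above the controls and all t-VK12653 libraries below them (-0.60, SE 0.12, adjusted p = 0.000164).

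Psmd9 read 14.1, 18.8 and 9.48 CPM in the controls, 14.3, 22.99, 19.9 and 17.9 in t-VK12653 and 15.5, 12.2, 14.9 and 12.8 in VQ-D1. It read 23.8, 19.7, 20.6 and 23.5 in VQ-D5, 8.84, 10.2, 9.16 and 9.67 in VQ-D4 and 31.9, 26.9, 26.7 and 30.4 in VQ-D2. The controls spread widely and overlapped VQ-D4, so that the call of a lower level there (-0.61, SE 0.25, adjusted p = 0.0425) was lost under 23 of the alternatives, leaving out control replicate 1 among them, while VQ-D2 lay wholly above the controls (1.04, SE 0.24, adjusted p = 0.00093). Psme2 was higher in VQ-D1 and lower in t-VK12653, as given with Psme1. The beta subunit Psmb2 was lower in t-VK12653 by -0.39 and the activator Psme4 by -0.35.

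The 2 subunits of the interferon-inducible activator were line-dependent. Psme1 read 154, 136 and 152 CPM in the controls, 122, 123, 193 and 188 in t-VK12653 and 351, 352, 426 and 408 in VQ-D1. It read 145, 158, 149.96 and 146 in VQ-D5, 169.7, 183, 249 and 218 in VQ-D4 and 282, 276, 264 and 258 in VQ-D2. VQ-D1 was highest, with a log2 fold change of 1.34 over the controls (SE 0.16, adjusted p = 2.6e-07), VQ-D2 next (0.83), and VQ-D5 overlapped the controls (0.02, adjusted p = 0.944).

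Psme2 read 27.5, 28.2 and 28.7 CPM in the controls, 14.9, 16.4, 14.5 and 19.5 in t-VK12653 and 41.9, 48.8, 44.4 and 47.04 in VQ-D1. It read 30.2, 29.7, 26.2 and 21.03 in VQ-D5, 25.8, 28.5, 29.4 and 16.8 in VQ-D4 and 31.3, 27.9, 30.99 and 33.2 in VQ-D2. VQ-D1 lay above the controls (0.66, adjusted p = 0.00145), t-VK12653 below them (-0.82, adjusted p = 0.000326), and the other lines were within or around them. The genes lie close together on chromosome 14, at chr14:55578494-55581527 for Psme1 and chr14:55587440-55591101 for Psme2 (GRCm38), and a retrocopy of Psme2, Psme2b, is listed separately in the tables, so reads of the pair may be split between them.

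The second question is how the VQ lines differ from the line that carries MYC alone. Across the 4 VQ lines, 34 of the 43 genes were higher than in t-VK12653 and 5 lower, where 57.3% of all genes were called, 27.4% higher and 29.8% lower. The median log2 difference was 0.53, against 0.03 over all genes. By role, 6 of 7 alpha subunits, 5 of 7 beta subunits, 5 of 6 ATPases, 10 of 14 non-ATPase subunits, all 4 activators, the inhibitor Psmf1 and 3 of 4 core chaperones were higher. With a single line of the MYC-only genotype, genotype and line cannot be told apart in this comparison.

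Psmc6 had the largest log2 difference, 1.42 (SE 0.09, adjusted p = 5.41e-12), followed by Psmb5 at 1.34 (SE 0.13, adjusted p = 3.82e-09) and Psmd7 at 1.07 (SE 0.08, adjusted p = 9.66e-11), although VQ-D1 overlapped t-VK12653 for Psmd7. For Psmc6 and Psmb5 no VQ library overlapped t-VK12653. Psmd14 read 38.2, 43.1 and 33.2 CPM in the controls, 40.7, 39.6, 36.5 and 40.9 in t-VK12653 and 75.97, 92.5, 74.9 and 99.8 in VQ-D1. It read 77.6, 87.8, 84.6 and 92.5 in VQ-D5, 54.6, 75.3, 87.6 and 89.3 in VQ-D4 and 86.5, 67.3, 77.1 and 88.8 in VQ-D2. Its t-VK12653 libraries lay among the controls, and all 16 VQ libraries lay above both (0.99 against t-VK12653, adjusted p = 4.64e-08).

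The 5 genes that were lower in the VQ lines were Psmg4 (-0.55, SE 0.14, adjusted p = 0.00193), the lid subunits Psmd13 (-0.53, SE 0.09, adjusted p = 3.58e-05) and Psmd8 (-0.40, SE 0.07, adjusted p = 6.44e-05), the ATPase Psmc4 (-0.25, SE 0.08, adjusted p = 0.00681) and Psmb1 (-0.23, SE 0.08, adjusted p = 0.0134). The Psmb1 call was lost without t-VK12653 replicate 3 or 4. Psmd13 read 81.7, 62.3 and 52.4 CPM in the controls, 139.9, 128, 135 and 119 in t-VK12653 and 96.9, 97.6, 106 and 100.5 in VQ-D1. It read 77.1, 87.6, 85.5 and 94.2 in VQ-D5, 84.6, 85.6, 116 and 106 in VQ-D4 and 81.1, 80.9, 83.2 and 91.6 in VQ-D2. All 4 t-VK12653 libraries were above every other library. Psma1, Psmb3, Psmd5 and Psmd9 were not called between VQ lines and t-VK12653.

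Tested jointly over the 5 tumour lines, 41 of the 43 genes differed, where 83.6% of all genes did. The exceptions were the beta subunit Psmb3 (adjusted p = 0.0629) and Psmd5 (adjusted p = 0.357). VQ-D5 had the highest line mean for 29 genes, VQ-D1 for 6, t-VK12653 for 5, VQ-D2 for 3 and VQ-D4 for 0, and t-VK12653 had the lowest for 27 and VQ-D4 for 10. These ranks describe the members, and the share of all genes highest or lowest in each line was not counted. The spread of the line means was narrowest for Psmb1, 1.26-fold between the lowest and highest line, Psmd5 at 1.27-fold and Psmb6 at 1.34-fold. It was widest for the weakly expressed Psmg3, 5.90-fold from 3.25 CPM in VQ-D4 to 19.2 in VQ-D5, with VQ-D2 at 18.1 and the controls at 5.40 ± 0.753. The next were Psmd7 at 3.66-fold, Psmc6 at 3.31-fold, Psmb4 at 3.14-fold, Psmd9 at 3.06-fold, Psmc2 at 2.99-fold and Psmb5 at 2.89-fold.

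**Figure D4:**
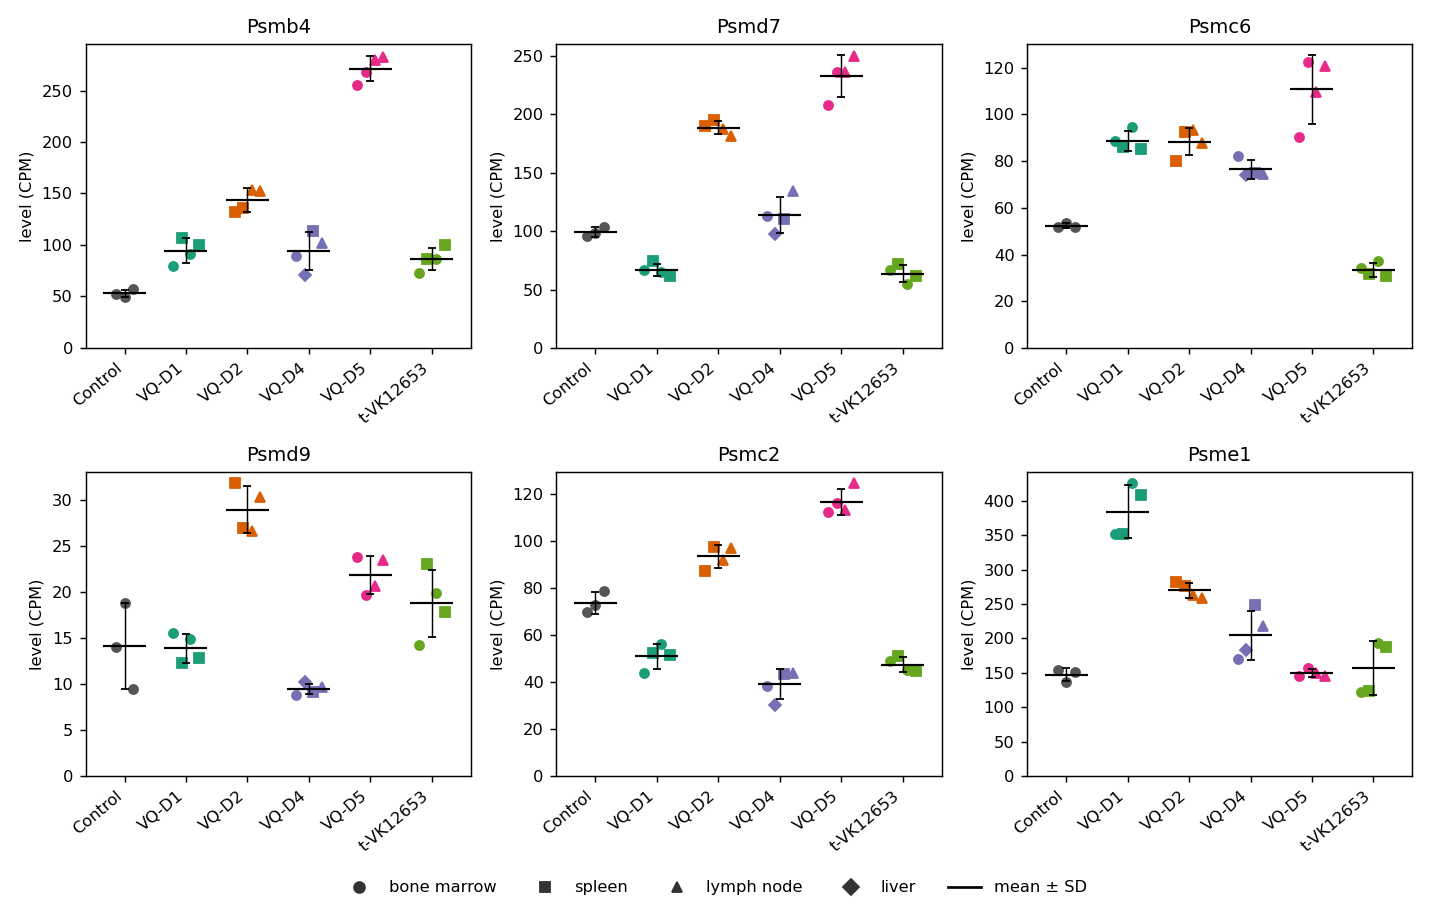
CPM of Psmb4, Psmd7, Psmc6, Psmd9, Psmc2 and Psme1 in each library by group, with bars for the group mean ± SD. Libraries of a line cluster together: VQ-D5 stands highest for Psmb4, Psmd7, Psmc6 and Psmc2, VQ-D2 for Psmd9 and VQ-D1 for Psme1.

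A gene was counted as specific to a line where that line differed from each of the other 4 in the same direction, each by its own test. This held for 27 of the 43 genes, where it held for 45.1% of all genes tested, and a gene could be specific to more than 1 line. Of the members, 15 were specifically higher in VQ-D5 (7.49% of all genes) and 16 specifically lower in t-VK12653 (8.58%). VQ-D1 had 2 specifically higher (2.57%), VQ-D4 2 specifically lower (3.78%), t-VK12653 1 specifically higher (9.31%) and VQ-D2 none in either direction (4.44% higher, 3.8% lower). When the libraries of each recipient, as the table names give them, were added up, the count was 16 of 43. The share of all genes was not counted for these sums, so the 16 has no background to be read against. The genes are few, and the call of 1 gene is not independent of another in the same libraries.

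In VQ-D5 the largest margins over the next line were those of Psmb4 (1.02 on the log2 scale), Psmc3 (0.86) and Psmd3 (0.59). Psmc3, an ATPase of the base, read 119, 118 and 132 CPM in the controls, 141, 150.4, 141 and 147 in t-VK12653 and 149.97, 179, 167 and 161 in VQ-D1. It read 281, 306, 331 and 296 in VQ-D5, 132, 126, 161 and 163 in VQ-D4 and 181, 161, 183 and 169 in VQ-D2, and every VQ-D5 library was above every library of the other groups. Psmd3 read 97.4, 78.6 and 112 CPM in the controls, 113, 115, 129 and 141 in t-VK12653 and 152, 163, 161 and 156 in VQ-D1. It read 241, 277, 256 and 284 in VQ-D5, 156, 164, 175 and 196 in VQ-D4 and 168, 163, 171 and 177 in VQ-D2, with VQ-D5 again above all others. In t-VK12653 the specifically lower genes with the largest margins were Psmc6 (1.19), Psmb5 (1.18) and Psmd14 (0.87), and the specifically higher one was Psmd13 (0.38).

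The VQ-D1 genes were Psme1 (0.52) and Psme2 (0.46). The VQ-D4 genes were Psmd9 (0.60) and Psma1 (0.64). Psma1, an alpha subunit, read 54.6, 54.6 and 60.8 CPM in the controls, 92.9, 81.99, 78.3 and 78.02 in t-VK12653 and 77.2, 83.4, 86.4 and 92.6 in VQ-D1. It read 116, 127, 129.99 and 128 in VQ-D5, 57.01, 45.9, 52.6 and 48.4 in VQ-D4 and 129, 116, 116 and 127 in VQ-D2. VQ-D4 lay around the controls, below every library of the other 4 lines.

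The members' differences between lines were set beside those of other genes on the same chromosome. This was chosen after the members' values were seen and is a description. For each line, the difference from the mean of the other 4 lines was set beside the median of the same difference over the other genes on the chromosome. On chromosome 5 those medians were 0.55 in VQ-D5, -0.70 in VQ-D4, 0.59 in VQ-D2, -0.54 in VQ-D1 and 0.14 in t-VK12653, in log2 units. In the same order of lines, the differences of Psmc2 were 1.07, -0.79, 0.64, -0.40 and -0.53. Those of Psmd9 were 0.44, -1.13, 0.93, -0.39 and 0.16, and those of Psmg3 were 1.58, -1.36, 1.39, -0.65 and -0.96. These genes thus had the sign of their chromosome in the 4 VQ lines, and Psmc2 and Psmg3 not in t-VK12653.

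On chromosome 8 the medians were 0.29 in VQ-D5, 0.36 in VQ-D4, 0.47 in VQ-D2, -0.51 in VQ-D1 and -0.53 in t-VK12653, and Psmd7 differed by 1.24, 0.02, 0.80, -0.99 and -1.07. In t-VK12653 the median was -0.77 on chromosome 14, which carries Psmb5 (-1.34), Psmc6 (-1.42), Psme2 (-0.99), Psme1 (-0.63) and Psmd6 (-0.60), and 0.81 on chromosome 7, which carries Psmd13 (0.53), Psmd8 (0.40), Psmc4 (0.25) and Psma1 (-0.14). On chromosome 3 the VQ-D5 median was 0.36, beside Psmb4 (1.41), Psmd4 (0.92) and Psma5 (0.71). Other differences had no such shift beside them: in VQ-D5 Psmc3 (0.95) lies on chromosome 2, with a median of -0.07, and Psmd3 (0.75) and Psme3 (0.82) on chromosome 11, with -0.13. Psmd14 in t-VK12653 (-0.99) lies on chromosome 2, with 0.03, and Psma1 in VQ-D4 (-0.94) on chromosome 7, with -0.10.

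Over the 43 genes, Pearson's r between a member's difference and its chromosome's median was 0.484 in VQ-D5, 0.658 in VQ-D4, 0.654 in VQ-D2, 0.713 in VQ-D1 and 0.664 in t-VK12653. With the genes within 5 Mb in place of the chromosome it was 0.463, 0.621, 0.507, 0.63 and 0.647. By sign, a member's difference had the sign of its chromosome's median for 21 of 43 genes in VQ-D5, 24 in VQ-D4, 25 in VQ-D2, 27 in VQ-D1 and 18 in t-VK12653, and the sign of the genes within 5 Mb for 23, 24, 27, 31 and 20. The count of shared signs was thus highest in VQ-D1 and lowest in t-VK12653. The members' own median difference was 0.57 in VQ-D5 and -0.53 in t-VK12653, and this offset enters the count of signs but not r. Genes are the points of these correlations and are not independent replicates, members on 1 chromosome share 1 median, and all points come from the same libraries. The part of the chromosomes in the differences between lines was not tested.

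**Figure D5:**
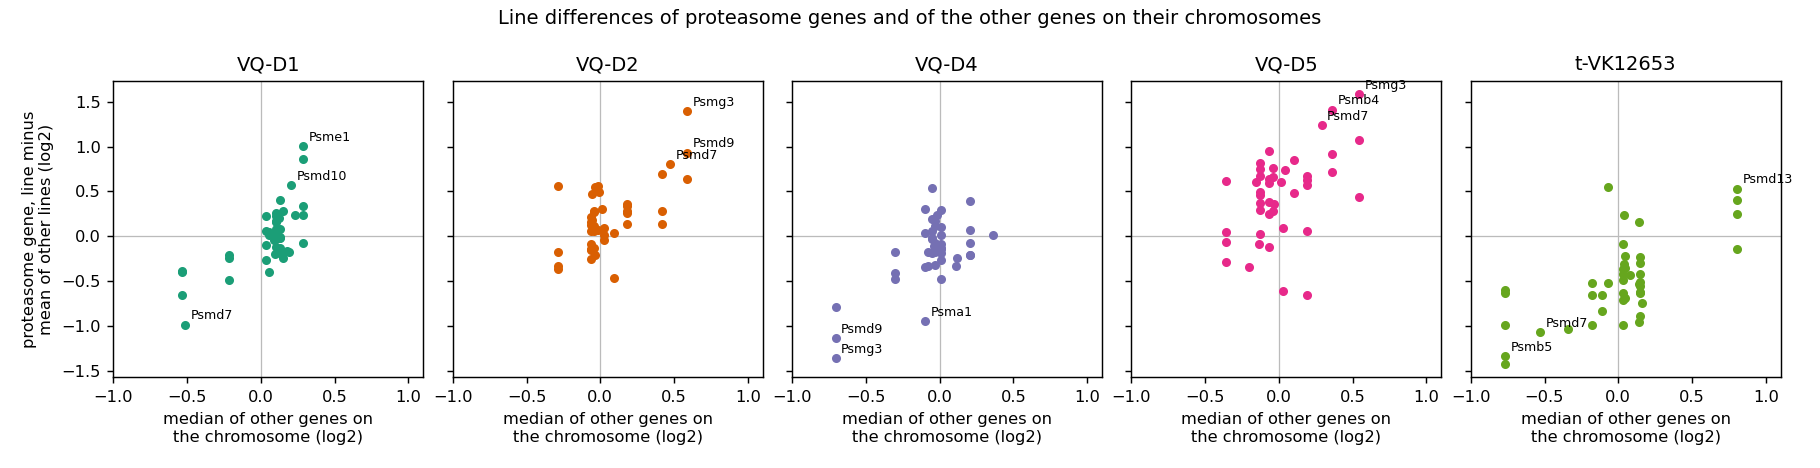
Difference of each of the 43 genes from the mean of the other 4 lines (vertical axes, log2) against the median of that difference over the other genes on its chromosome (horizontal axes, log2), 1 panel per tumour line. Points tend from lower left to upper right in each panel, VQ-D5 points lie mostly above 0 and t-VK12653 points mostly below 0.

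No member passed the test between tissues. Within lines, 0 of 43 genes differed between spleen and bone marrow (0% of all genes called) and 0 between lymph node and bone marrow (0.0143% called, 0.00715% higher and 0.00715% lower), by edgeR. At an unadjusted p below 0.05 there were 3 members each, Psmb4 (0.20), Psmd14 (0.25) and Psmd1 (-0.14) for spleen and Psmb4 (0.22), Psmd14 (0.29) and Psmd2 (0.19) for lymph node, and DESeq2 called 0 members in either. The lowest adjusted p over members were 0.554 and 0.617. The single liver library carries a term of its own in the model and adds nothing to these fold changes.

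Genes known to work with the proteasome were read from lists of 3 kinds. Of 12 tested genes for associated factors and assembly, 1 was higher in the VQ line sums and none lower: Uchl5, a deubiquitinase that docks on the 19S particle (1.75, SE 0.45, adjusted p = 0.0295). Pomp, the chaperone that matures the core, differed by 1.03 (adjusted p = 0.165). It was higher in VQ-D2 (1.33) and VQ-D5 (1.51), lower in t-VK12653 (-0.52), and differed by 0.11 in VQ-D1 and -0.20 in VQ-D4 without passing the test. Against the controls this list had 7 higher and 1 lower genes in VQ-D5, 1 and 1 in VQ-D4, 5 and 1 in VQ-D2, 4 and 2 in VQ-D1 and 1 and 6 in t-VK12653.

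Of 9 genes of transcriptional control, none was called in the line sums, and Nfe2l1, the factor known to raise subunit transcription when proteasome activity falls, differed by -0.02 (adjusted p = 0.953). The counts by line were 0 higher and 5 lower in VQ-D5, 1 and 4 in VQ-D4, 0 and 5 in VQ-D2, 0 and 4 in VQ-D1, and 1 and 3 in t-VK12653. Nfe2l1 itself was lower in VQ-D2 (-0.44) and VQ-D5 (-0.74), and Ddi2, the protease that activates its product, was lower in t-VK12653 (-1.54), VQ-D2 (-0.76), VQ-D4 (-0.70) and VQ-D1 (-0.41).

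Of 17 genes that supply or deliver ubiquitin, 4 were higher and 1 lower in the line sums. The higher ones were Rps27a, which encodes ubiquitin fused to a ribosomal protein (1.80, adjusted p = 0.015), Ufd1l, a cofactor of the segregase Vcp (0.92, adjusted p = 0.0242), the deacetylase Hdac6 (0.88, adjusted p = 0.039) and the chaperone Bag6 (0.64, adjusted p = 0.0474). Higher and lower genes of this list numbered 11 and 2 in VQ-D5, 8 and 5 in VQ-D4, 6 and 3 in VQ-D2, 6 and 4 in VQ-D1 and 4 and 5 in t-VK12653.

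Some members share sequence that could divide or mix reads. Exons of 7 overlap those of another listed gene: Psma4, Psmb7, Psmc3, Psmd1, Psmd13 and Psme1 on the opposite strand and Psmb5, with the microRNA gene Mir686, on the same strand. For 8 members, Psma3, Psma4, Psma5, Psmb3, Psmb5, Psmc1, Psmd2 and Psmd11, there are annotated pseudogene transcripts at least 95% identical over at least 200 bases. Values of these genes are uncertain to that extent.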

How the data were processed

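RNA from 23 libraries of CD138+ B220- mouse cells was sequenced as stranded total RNA, per the labels' protocols. The authors deposited 1 table per library with raw read counts per gene symbol, FPKM values and TPM values, per the file headers. STAR, featureCounts, DESeq2 and the GRCm38 (mm10) build are named in the submitters' processing notes; the sources used here do not state versions, annotation or strand setting. FPKM, normalized by the authors to gene length and read total, was not used. TPM, scaled by the authors to length and to a common sum per library, served only to compare levels between genes and to check sums.

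Counts were analysed with edgeR 4.0.16 in R 4.3.3: TMM scaling, filterByExpr (minimum count 10, minimum total 15), robust quasi-likelihood tests and Benjamini-Hochberg adjustment over all genes tested. A gene counts as called at an adjusted p below 0.05. The line sums were fitted as 4 VQ lines against 3 controls, with 13870 genes. All other tests came from a model of group and tissue over 23 libraries, with 13987 genes. CPM are TMM-scaled, and SEs are the fold change divided by the square root of F. Scripts were tested on simulated data. Genes were placed on GRCm38 by symbol with RefSeq genes, which matched 22619 of 24063 symbols and 45 of 45 members. Exon overlaps and pseudogene transcripts were read from GENCODE vM21. Library totals ran from 2685579 to 10047314 (median 4626666), and replicates differed by more than sampling noise in all 33 pairs (chi-square per degree of freedom 4.83 to 24.0). Replicate numbers in the labels name samples and do not pair them.

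Members and gene lists were chosen with earlier results of these data known. Values in every library are given for the catalytic subunits, the 3 largest and 3 smallest called fold changes of the line sums, the 6 members with the widest range of line means and mean CPM of at least 10, and up to 3 line-specific members per line and direction. Other members are given by group values or counts. Alternatives were RLE size factors, DESeq2 1.42.0, no filter, leaving out abundant non-coding RNA, bone marrow alone, sums per recipient, replicate blocks and leaving out each library or line. Results of 2 genes outside the members are not reported here.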

Additional observations from a re-analysis of the deposited data

Results flagged for a closer look

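In 3 of 120 groups of 4 libraries, 1 value stood far from the other 3, where chance alone sets apart about 1 group in 20. Psma5 was 18.7 CPM in the spleen library of VQ-D1 replicate 2, against 22.7 to 23.1 in the others of that line. Psmc6 was 82.4 CPM in the bone marrow library of VQ-D4 replicate 1, against 74.2 to 74.9. Psmg1 was 25.4 CPM in the bone marrow library of VQ-D1 replicate 1, against 15.8 to 17.3.

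For 7 members, 1 line was higher and another lower than the controls. The share of all genes with such calls was not counted. For each member the pair of lines with the largest difference is given, among lines already called in opposite directions. Lines chosen in this way tend to differ in a direct test (edgeR, adjusted over all genes), so its p-values add no support. The values describe the size of the difference. For Psmd9 the VQ-D4 libraries overlapped the controls, and that lower call was lost under many alternatives, as given above. The log2 difference was 1.84 for Psmd7 (VQ-D5 minus t-VK12653, SE 0.10, adjusted p = 3.8e-13), 1.68 for Psmc6 (VQ-D5 minus t-VK12653, SE 0.11, adjusted p = 7.96e-12) and 1.65 for Psmd9 (VQ-D2 minus VQ-D4, SE 0.21, adjusted p = 7.63e-07). Psmc2 differed by 1.49 (VQ-D5 minus VQ-D4, SE 0.11, adjusted p = 6.86e-11) and Psme2 by 1.48 (VQ-D1 minus t-VK12653, SE 0.14, adjusted p = 1.12e-08). Psmb2 differed by 1.42 (VQ-D5 minus t-VK12653, SE 0.11, adjusted p = 2.16e-10), at 1.03 above and -0.39 below the controls. Psme4 differed by 0.74 (VQ-D5 minus t-VK12653, SE 0.08, adjusted p = 7.08e-08), at 0.39 and -0.35.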

How the results depend on the processing

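The count of 26 higher genes in the VQ line sums was the least stable. It was 18 with RLE size factors, 20 with no filter, 24 with DESeq2, 11 in bone marrow alone, 21 with abundant non-coding RNA left out and 36 as the mean of the lines in the model of all libraries. Calls over all genes, in the same order, were 2872, 2665, 4284, 2027, 2968 and 8228, against 3192. It was 20 without VQ-D1, 11 without VQ-D2, 29 without VQ-D4 and 17 without VQ-D5, where calls over all genes were 3015, 2325, 3713 and 2534. Leaving out single libraries gave 3 to 27, the low values without 1 control. Calls over all genes also fell there, from 3192 to 1221, 1148 and 1226 without control replicate 1, 2 or 3. No member was lower in the sums under RLE, DESeq2, no filter, bone marrow alone or without non-coding RNA. RLE moved the median of all genes from 0.19 to 0.07 and that of the members to 0.78, and the share of higher calls among all genes from 59.7% to 50.6%.

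For counts from the model of all libraries, leaving out 1 library gave 34 to 38 for VQ-D1, 31 to 39 for VQ-D2, 24 to 33 for VQ-D4, 35 to 38 for VQ-D5, 18 to 26 for t-VK12653, 36 to 39 for VQ against t-VK12653, 40 to 42 between lines, 25 to 28 specific to a line, and 0 for either tissue. VQ-D4 had 19 in bone marrow alone, and sums per recipient left 16 specific genes. With VQ-D4 replicate 2 and VQ-D1 replicate 1 both left out, chosen after the data were seen as the tumour libraries with the most neutrophil and hepatocyte RNA, the line sums gave 27. Of 4280 values of single genes under alternatives, 4054 kept their call status, 133 lost a call, 93 gained one and 0 reversed. Direction was not compared where neither fit called the gene. The cause of the changes was not tested.

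With the replicate number as a block, counts were 36 for VQ-D1, 35 for VQ-D2, 29 for VQ-D4, 37 for VQ-D5, 21 for t-VK12653, 36 for VQ against t-VK12653, 42 between lines, 27 specific to a line and 0 for spleen and lymph node, and 0 for both with a block by recipient. No paired analysis was possible for the line sums because each sum adds all replicates of a line. Depth limits Psma8 and Psmb11, which are not measurable here.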
